A study of Rattus norvegicus with 36 samples.

Results

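Collagen chain genes encode the alpha chains that wind around each other into collagen, the main structural protein of the extracellular matrix. The genes described here are all protein-coding genes in the count tables whose symbol is Col, a number, a and a number, and 43 of the 24275 genes listed met that rule. They carry 42 symbols, because *Col23a1* is listed under 2 identifiers. By the kind of structure they build, 11 are fibrillar, 5 are basement membrane and 9 are FACIT chains (fibril-associated collagens with interrupted triple helices). A further 5 are beaded filament, 3 network-forming short chain, 2 multiplexin, 5 transmembrane and 1 anchoring fibril chains, and 2 belong to no such class. *Col6a3* is listed as a processed transcript and is left out by the rule, although its 218 to 245 CPM in Hypoxia MC was above that of every beaded filament member.

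RNA was measured in H9C2, a rat cardiac myoblast line. Each culture received 25 nmol/L of 1 of 6 mimics for 24 h, which were a mimic control (MC), miR-125b, the lengthened isomiR Plus A and the shortened isomiRs Trim A, Trim AG and Trim AGU. A further 24 h followed in hypoxia or normoxia. Counts of 33 libraries in 11 groups of 3 were used, which are Hypoxia with each of the 6 mimics and Normoxia with the 5 mimics other than MC. For Normoxia MC only the authors' group means were used. Hypoxic cells were in serum-free, low-glucose medium and normoxic cells in fresh medium, so the lack of oxygen, serum and glucose cannot be told apart. All groups are of a single line and all were transfected.

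Fibrillar collagens such as types I, III and V assemble into the fibrils that give heart and other tissues tensile strength, and are known as main products of fibroblasts and of scar formation. Type IV collagen forms the sheet-like network of basement membranes that surround muscle cells. FACIT collagens lie on the surface of fibrils. MicroRNAs lower the level of messenger RNAs that pair with their seed, and a 3′ isomiR keeps the seed while its tail differs.

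The mimics are shown because those other than MC differ from each other in nothing but the 3′ end. The sequence of miR-125b is that of the rat miR-125b-5p from RefSeq (GRCr8, chr11:29732588-29732609, plus strand), and the isomiRs were derived from it by adding or removing the bases that their names give. The sample titles number the Trim mimics 1 to 3, and these numbers were read here as the count of bases removed, from Trim A to Trim AGU. Capitals mark the seed, bases 2 to 8, which all 5 share.
miR-125b: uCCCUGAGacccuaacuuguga
Plus A: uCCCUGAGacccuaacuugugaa
Trim A: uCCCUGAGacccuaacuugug
Trim AG: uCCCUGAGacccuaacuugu
Trim AGU: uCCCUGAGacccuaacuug

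Library totals were 28361216 to 42672584 counts, and levels are given as counts divided by the library's total and scaled to a sum shared by all libraries (CPM). The Hypoxia Trim AG libraries were the deepest, at 39940087 to 42672584 counts, and no other library had more than 34505938. The part of depth in the results was not tested. The libraries within Hypoxia Trim A, Trim AG and Trim AGU differed by gene length. The measure was the median log2 deviation of genes of at least 6000 bases minus that of genes under 1000 bases. It was 0.0763, -0.0157 and -0.102 in the replicate 1 libraries of Trim A, Trim AG and Trim AGU. In replicate 2 of these groups it was -0.477, -0.515 and -1.22, and in replicate 3 -0.423, -0.261 and -0.484. Long genes were thus lower in replicates 2 and 3 than in replicate 1. In Trim A replicate 1 stood apart from the others, in Trim AG replicate 3 lay between, and in Trim AGU replicate 2 was farthest from the others. Collagen chains are long, with a median length of 4765 bases against 1755 bases over all genes listed. The counts of calls on these groups, and the values of several chains, are therefore also given from replicate 1 of the Trim group alone, a fit that takes the spread of the lone library from the other group. The part of gene length in the results was not tested beyond this and the removal of a length trend. In normoxia, the libraries labelled miR-125b replicate 1 and Plus A replicate 1 each lay closer to the other group than to their own over all genes. By the mean chi-square per gene, in which a larger value is a larger difference, the former differed by 17.4 and 18.3 from replicates 2 and 3 of miR-125b and by 6.50 and 7.87 from those of Plus A. The latter differed by 17.0 and 17.0 from replicates 2 and 3 of Plus A and by 9.36 and 5.97 from those of miR-125b. Whether these libraries were exchanged could not be checked, and the labels were kept. *Col2a1*, for example, had 0.822, 2.26 and 2.61 CPM with miR-125b and 2.58, 1.14 and 1.06 CPM with Plus A. Counts of calls that rest on them are therefore also given without these libraries.

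**Figure D1:**
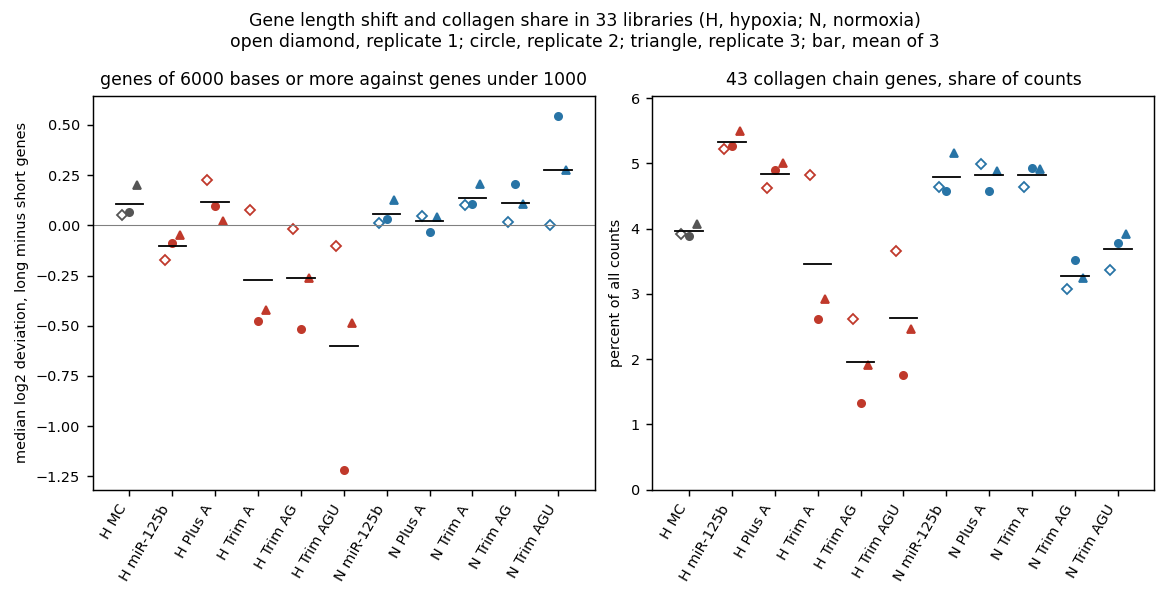
Gene length shift (left, median log2 deviation of genes of at least 6000 bases minus that of genes under 1000 bases) and share of all counts on the 43 collagen chain genes (right, percent) in each of the 33 libraries. Symbols mark replicates 1, 2 and 3 and bars the mean of 3; replicates 2 and 3 of the hypoxic Trim groups lie lowest on the left, at -1.22 to -0.261, and their collagen share lies below that of their replicate 1 on the right.

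The line carried muscle and fibroblast markers. Of 12 muscle genes, *Myod1*, *Myog*, *Tnnt2*, *Acta1*, *Mef2c* and *Gata4* were present in all groups. *Des* had group means of 1.01 to 4.42 CPM, and *Actc1* had 33.3 CPM in Hypoxia MC and at most 1.45 CPM elsewhere. *Myf5*, the myosin chain genes *Myh7* and *Myh6*, and *Nkx2-5* had group means of at most 0.0234, 0.307, 0.771 and 0.795 CPM. The summed level of the muscle list was 973 to 989 CPM in Hypoxia MC and 172 to 191 CPM in Hypoxia Trim A, the lowest group. Members differed, for *Acta1* had means of 166 CPM in Hypoxia MC and 160 CPM in Hypoxia Trim AG. *Gata4* had 9.18 CPM in Hypoxia MC and 11.2 to 13.6 CPM in the other hypoxic groups. Of 6 fibroblast markers only *Pdgfra* was below 1 CPM in all groups. The list summed to 4731 to 4851 CPM in Hypoxia MC, 4083 to 4138 CPM in Hypoxia miR-125b, 3582 to 3836 CPM in Hypoxia Trim AG and 4492 to 5502 CPM in Hypoxia Trim AGU. *Vim* made up most of the sum, with means of 3734, 3178 and 2750 CPM in Hypoxia MC, miR-125b and Trim AG. In that order *Pdgfrb* (409, 396 and 270 CPM) and *S100a4* (406, 242 and 353 CPM) were also lower than in MC. *Thy1* (93.0, 116 and 113 CPM) and *Ddr2* (153, 185 and 223 CPM) went the other way. The summed level of 4 smooth muscle genes was 5627 to 5938 CPM in Hypoxia MC, 9733 to 10022 CPM in Hypoxia miR-125b and 16252 to 16718 CPM in Hypoxia Trim AG. Most of it was *Acta2* and *Tagln*, with means of 4033 and 1599 CPM in Hypoxia MC and 7263 and 2481 CPM in Hypoxia miR-125b. The other members, *Cnn1* and *Myh11*, did not rise with miR-125b, at 148 and 9.28 CPM in MC and 142 and 8.72 CPM with miR-125b. In Hypoxia Trim AG they had 478 and 11.9 CPM. The sum of 4 epithelial genes, of which all but *Krt8* were below 1 CPM, was 192 to 201 CPM in Hypoxia MC, 137 to 146 CPM in Hypoxia miR-125b and 48.5 to 57.6 CPM in Hypoxia Trim AG, and at most 49.8 CPM in normoxia. Over all libraries 4 immune genes summed to 0.792 to 2.81 CPM and 1 endothelial gene had 0.690 to 4.46 CPM. The 3 chondrocyte genes summed to 4.96 to 12.5 CPM over the hypoxic libraries and to 18.9 to 33.2 CPM over the normoxic ones. Of these genes 2 were below 1 CPM in each group. The groups thus differed in the muscle, smooth muscle, fibroblast, epithelial and chondrocyte lists, and the part of that in the collagen results was not tested. In these bulk samples fewer cells of a type and less RNA per cell cannot be told apart.

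Collagen transcripts were a large part of the RNA. The 43 genes held 5.22, 5.26 and 5.49% of all counts in the Hypoxia miR-125b libraries and 3.92, 3.88 and 4.08% in Hypoxia MC. They held 2.62, 1.33 and 1.91% in Hypoxia Trim AG and 3.08, 3.52 and 3.25% in Normoxia Trim AG. Per length, in the authors' FPKM averaged over all 33 libraries, *Col1a1* (type I) stood at 3341 FPKM and *Col3a1* (type III) at 1806 FPKM. They were followed by *Col5a2* at 624, *Col1a2* at 501, *Col5a1* at 276, *Col4a1* at 212 and *Col4a2* at 154 FPKM. The most abundant chain of the short-chain class was *Col8a1* at 99.7 FPKM and that of the FACIT class was *Col12a1* at 60.1 FPKM. In all, 20 of the 43 genes had a mean of at least 10 CPM in a group, and 35 passed the filter on low counts in at least 1 fit. The 8 identifiers that never passed are *Col6a4*, *Col6a6*, *Col9a1*, *Col13a1*, both of *Col23a1*, *Col25a1* and *Col28a1*.

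**Figure D2:**
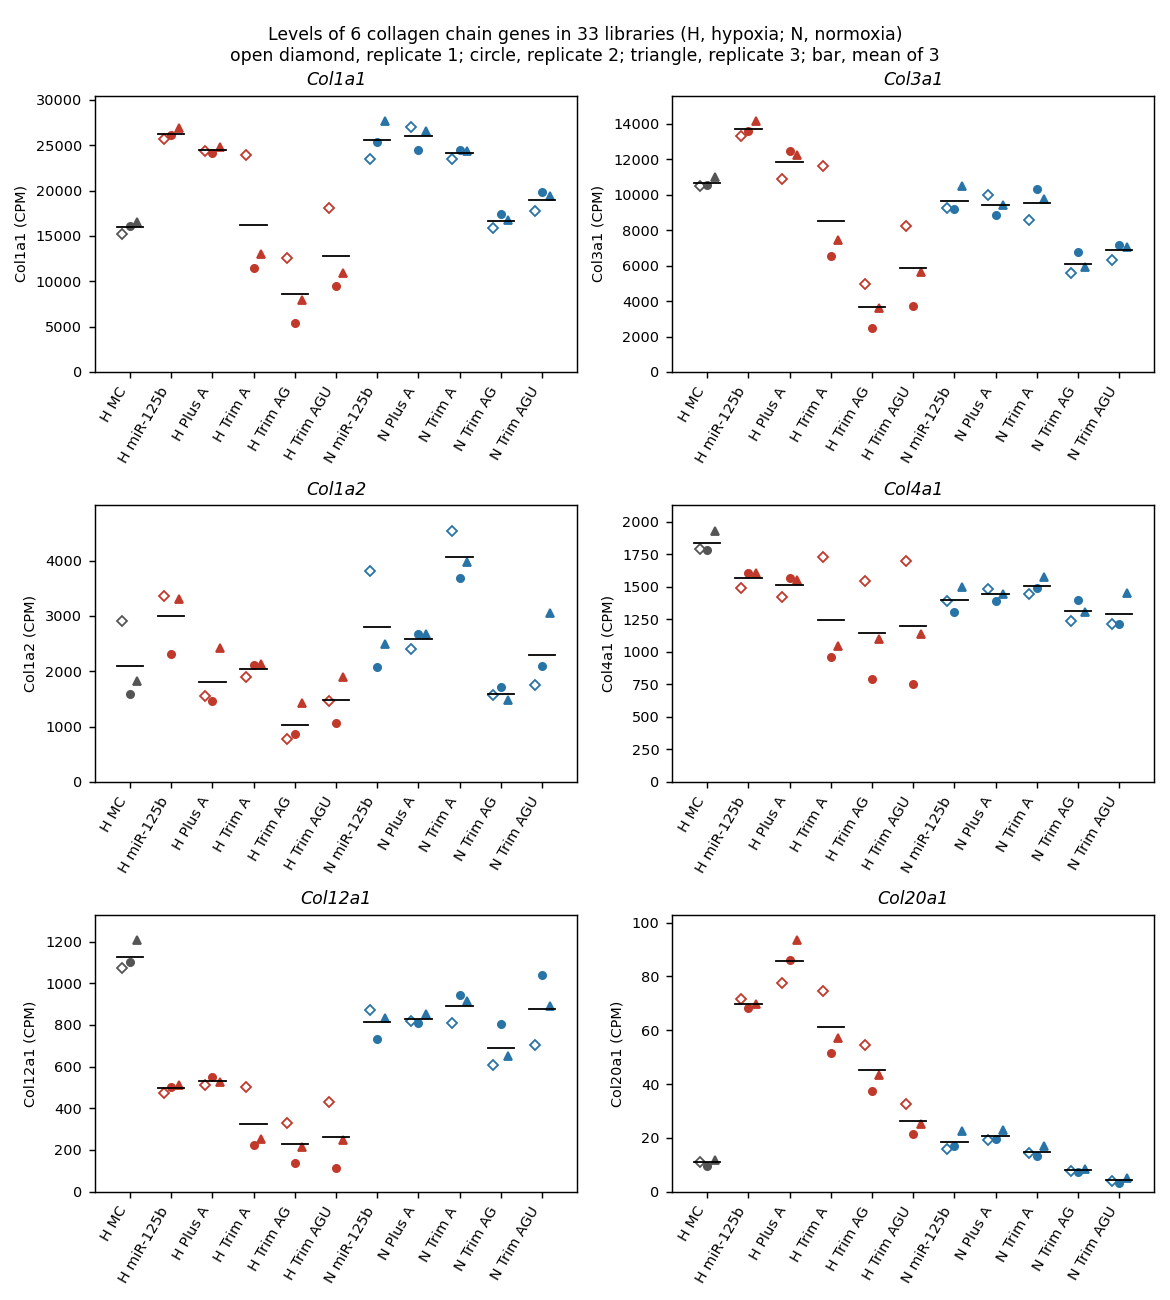
Level (CPM) of *Col1a1*, *Col3a1*, *Col1a2*, *Col4a1*, *Col12a1* and *Col20a1* in each of the 33 libraries, by group of oxygen and mimic; symbols mark replicates and bars the mean of 3. *Col12a1* lies highest in Hypoxia MC at 1073 to 1206 CPM, *Col20a1* highest in Hypoxia Plus A at 77.6 to 93.4 CPM, and *Col1a1* and *Col3a1* lowest in Hypoxia Trim AG.

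The first question was how miR-125b and its isomiRs changed the chains against MC in hypoxia. A gene was called at an adjusted p below 0.05 with a fold of at least 1.5. With miR-125b, 7 of 34 tested chains were called higher and 5 lower, where 9.43% of all genes tested were higher and 12.5% lower. The share of higher chains was above that of all genes and the share of lower chains close to it. *Col1a1* was the most abundant chain called higher and *Col12a1* the most abundant called lower, while *Col2a1*, *Col4a4*, *Col6a2* and *Col9a3* of the 7 higher chains were minor ones. Among chains of at least 10 CPM the strongest riser was *Col20a1*, a FACIT chain, which had 11.2, 9.64 and 11.9 CPM in Hypoxia MC and 71.5, 68.4 and 69.7 CPM in Hypoxia miR-125b. Its log2 fold change was 2.71 (SE 0.07, adjusted p = 2.25e-10). *Col11a2*, a type XI chain of thin fibrils, rose from 11.8, 11.1 and 11.9 to 35.9, 37.4 and 33.2 CPM, a log2 fold change of 1.65 (SE 0.06, adjusted p = 5.86e-09). No library of miR-125b overlapped one of MC for either gene, as held for 26 of 34 tested chains and 65.1% of all genes tested.

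The minor chains called higher stayed at low levels. *Col2a1*, the type II chain of cartilage, had 0.331, 0.101 and 0.275 CPM in Hypoxia MC and 1.68, 1.36 and 1.74 CPM with miR-125b, with a log2 fold change of 2.77 (SE 0.36, adjusted p = 5.62e-05). *Col9a3*, a FACIT chain of cartilage fibrils, went from 1.32, 2.05 and 1.37 to 3.88, 3.61 and 3.00 CPM and rose by 1.18 on the log2 scale. *Col4a4*, a chain known from kidney basement membrane, went from 0.43, 0.47 and 0.24 to 1.13, 1.23 and 1.42 CPM and rose by 1.75 on that scale. No hypoxic library had more than 4.38 CPM of any of these 3 chains. The cartilage matrix genes *Acan* and *Matn1* had group means of at most 0.424 and 0.125 CPM, and the cartilage regulator *Sox9* had 10.8, 10.6 and 10.9 CPM in Hypoxia MC and 8.28, 7.87 and 8.62 CPM in Hypoxia miR-125b, lower in the latter. *Col6a2* was also called higher, but not when Hypoxia MC replicate 3 or Hypoxia miR-125b replicate 1 or 2 was left out. The far more abundant *Col6a3*, which the rule leaves out, was called lower with miR-125b, with a log2 fold change of -1.26. Each isomiR against MC in hypoxia also had *Col6a3* called lower, with log2 fold changes of -1.35 (Plus A) to -3.14 (Trim AG).

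Among the abundant chains, *Col1a1* was called higher with miR-125b, while *Col1a2* and *Col3a1* did not reach the fold threshold. *Col1a1* had 15262, 16100 and 16507 CPM in Hypoxia MC and 25741, 26177 and 26897 CPM in Hypoxia miR-125b, a log2 fold change of 0.76 (SE 0.03, adjusted p = 4.81e-09). Its partner *Col1a2* had 2900, 1580 and 1828 CPM in MC and 3355, 2311 and 3302 CPM with miR-125b, and its log2 fold change of 0.54 (SE 0.20, adjusted p = 0.0347) was under the fold threshold. The *Col1a2* libraries overlapped and spread far more than those of *Col1a1*. *Col3a1* had 10473, 10572 and 11005 CPM in MC and 13284, 13614 and 14175 CPM with miR-125b, which did not overlap but differed by 0.39 log2, under the fold threshold.

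The fallers were led by the FACIT chain *Col12a1*, which binds the surface of type I fibrils. It had 1073, 1101 and 1206 CPM in Hypoxia MC and 472, 502 and 514 CPM with miR-125b, with a log2 fold change of -1.15 (SE 0.04, adjusted p = 5.23e-09). *Col27a1*, a fibrillar chain of cartilage, fell from 139, 138 and 154 to 59.6, 67.4 and 67.4 CPM, a log2 fold change of -1.11 (SE 0.05, adjusted p = 2.82e-08). *Col26a1*, which belongs to no class here, fell from 26.4, 27.5 and 26.1 to 14.3, 15.4 and 16.7 CPM. *Col4a6*, a basement membrane chain, fell from 9.59, 9.17 and 10.6 to 5.71, 6.23 and 6.78 CPM, and the low fibrillar chain *Col24a1* fell by 0.89 on the log2 scale. The call of *Col4a6* was lost without Hypoxia MC replicate 3 or Hypoxia miR-125b replicate 1, and that of *Col24a1* without replicate 3 of either group. *Col4a1* and *Col4a2*, the main basement membrane pair, had log2 fold changes of -0.19 and -0.16 and were not called.

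The isomiRs were set against the same MC libraries, so these comparisons are not independent of each other. With Plus A, 7 of 33 tested chains were called higher (all genes, 10.5%) and 9 lower (14.4%). With Trim A, 5 of 33 were higher (12.4%) and 10 lower (15.7%), and with replicate 1 alone 6 (9.39%) and 7 (12.8%) of 34. With Trim AG, 4 of 33 were higher (17.0%) and 20 lower (20.2%), and with replicate 1 alone 4 (13.6%) and 14 (17.5%) of 34. With Trim AGU, 1 of 33 was higher (11.4%) and 9 lower (12.4%), and with replicate 1 alone 3 (8.45%) and 10 (12.9%) of 34. For each of the isomiRs the share of lower chains was above that of all genes, and it was largest for Trim AG. For the Trim isomiRs this excess over all genes was also seen from replicate 1 alone. The Trim AGU count was 5 to 6 chains without any of the 3 Hypoxia MC libraries and 16 without Hypoxia Trim AGU replicate 1.

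*Col20a1* rose with each mimic. It had 77.6, 86.1 and 93.4 CPM in Hypoxia Plus A, 74.6, 51.5 and 57.2 CPM in Hypoxia Trim A, 54.6, 37.3 and 43.2 CPM in Hypoxia Trim AG and 32.6, 21.6 and 25.1 CPM in Hypoxia Trim AGU. The log2 fold changes against MC were 2.99, 2.53, 2.11 and 1.41, and no library overlapped MC. Of all genes tested 55.1% (Trim AGU) to 66.8% (Trim AG) did not overlap in these comparisons. *Col12a1* fell with each mimic, with 513, 549 and 526 CPM in Hypoxia Plus A, 502, 225 and 253 CPM in Hypoxia Trim A, 329, 139 and 213 CPM in Hypoxia Trim AG and 431, 112 and 246 CPM in Hypoxia Trim AGU. Even the highest of these libraries lay below the lowest of MC. *Col26a1* and *Col27a1* were also called lower with all 5 mimics, with log2 fold changes of -0.75 to -2.52 and -1.11 to -2.30. The *Col12a1* call with Trim AGU was lost without Hypoxia MC replicate 3 or Hypoxia Trim AGU replicate 3.

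*Col18a1*, the multiplexin whose fragment is endostatin, was called lower with Plus A and the 3 Trim isomiRs. It had 37.5, 37.0 and 38.6 CPM in MC, 23.0, 26.1 and 25.3 CPM with miR-125b, 15.3, 20.4 and 19.8 CPM with Plus A and 20.6, 11.9 and 16.4 CPM with Trim AG. The miR-125b libraries also lay below those of MC, but their log2 fold change of -0.57 missed the fold threshold. The Trim AGU call was lost without any of the 3 MC libraries and was not made from replicate 1 alone. *Col16a1*, a FACIT chain of fibril surfaces, was called lower with the 3 Trim isomiRs, with log2 fold changes of -0.93, -1.65 and -1.11. From replicate 1 alone they were -0.45, -1.26 and -0.74, of which the first was not called.

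**Figure D3:**
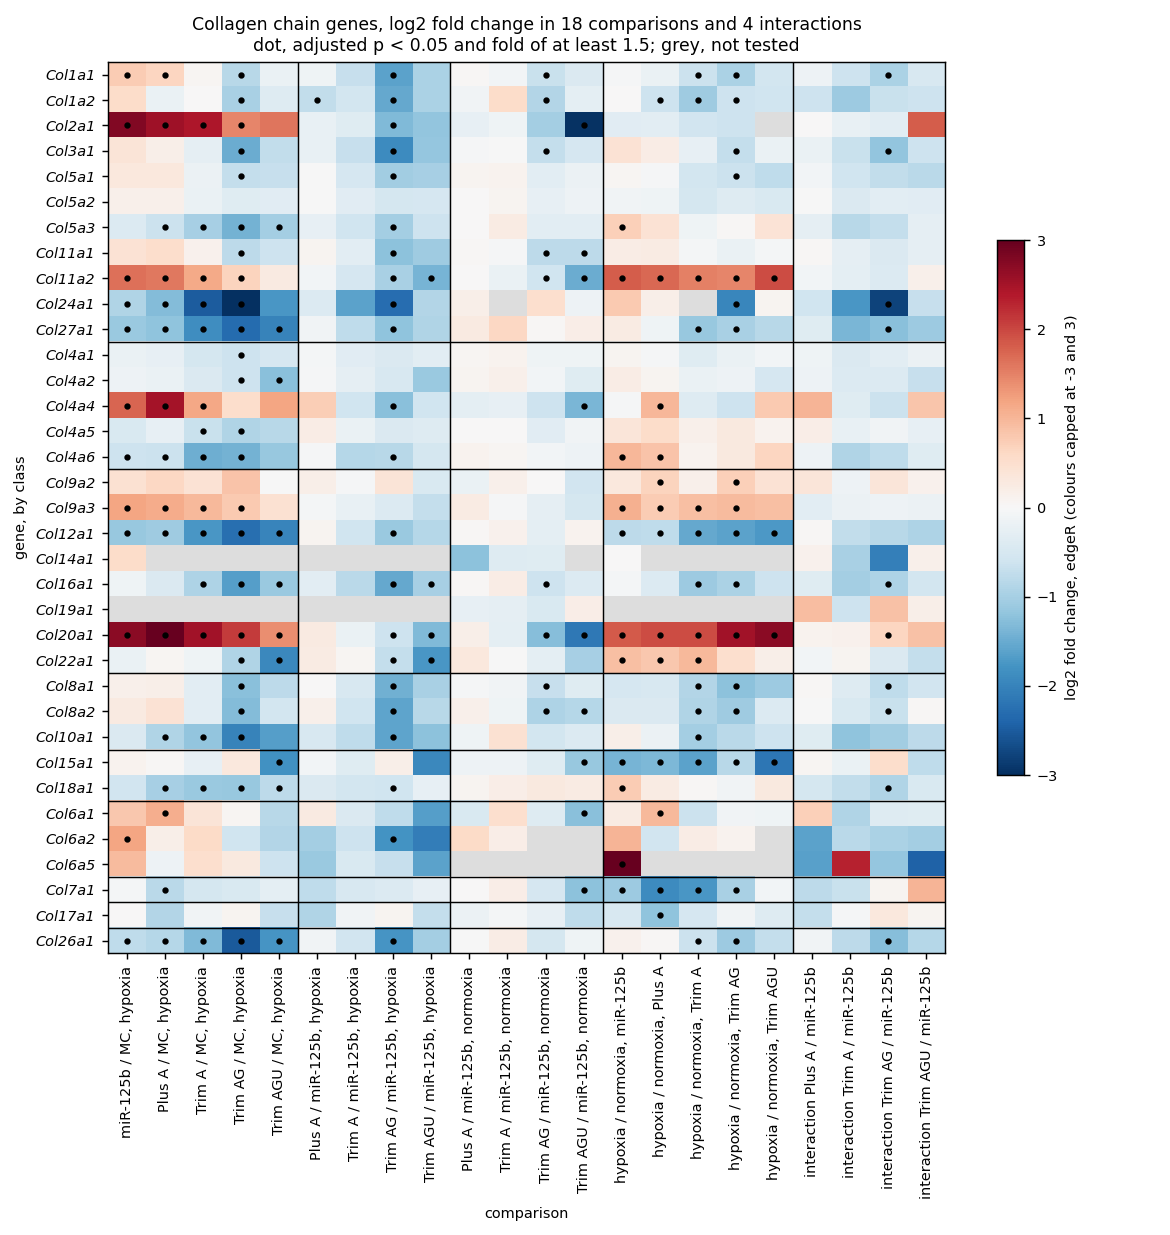
Log2 fold change (colour, red higher and blue lower, capped at -3 and 3) of the 35 tested chains, by class, in 18 comparisons and 4 interactions of oxygen with an isomiR. Dots mark calls and grey cells were not tested; in the column of Trim AG against miR-125b in hypoxia all 22 dots are on blue cells, and the rows of *Col11a2* and *Col20a1* are called higher in all 5 comparisons of hypoxia with normoxia.

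The second question was how each isomiR differed from miR-125b itself. Plus A differed in 1 chain in hypoxia, with 0 of 33 higher (0.707% of all genes) and 1 lower (1.32%), and in 0 of 34 in normoxia (0.0% of all genes higher and 0.0% lower). The chain was *Col1a2*, with 1554, 1466 and 2421 CPM in Hypoxia Plus A against 3355, 2311 and 3302 CPM in Hypoxia miR-125b. These libraries overlapped, the call was lost without Plus A replicate 1 or 2 or miR-125b replicate 1 or 3, and DESeq2 called 0 chains. Without Plus A replicate 3 the count was 3. In normoxia 0 chains had an unadjusted edgeR p below 0.05 and DESeq2 called 0. Without replicate 1 of both groups 1 of 33 chains, *Col2a1*, was called lower, where 0.357% of all genes were higher and 0.761% lower.

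With Trim A, 0 of 33 chains were called in hypoxia (0.457% of all genes higher, 0.417% lower) and 0 of 33 in normoxia (0.367% and 0.0475%) by edgeR. In hypoxia 15 of them had an unadjusted p below 0.05 and DESeq2 called 5, which were *Col3a1*, *Col4a6*, *Col8a2*, *Col10a1* and *Col16a1*, all lower. In normoxia 3 had such a p and DESeq2 called 1, *Col27a1*. The hypoxic count turned on the libraries, for it was 18 without Trim A replicate 1 and 1 of 34, *Col1a2*, from replicate 1 alone (0.411% of all genes lower). *Col1a1* shows this, with 23957, 11503 and 13056 CPM in Hypoxia Trim A, of which replicate 1 was close to miR-125b and the other libraries lay below MC. In normoxia *Col1a1* had 23518, 24442 and 24326 CPM with Trim A and 23470, 25401 and 27702 CPM with miR-125b, which overlapped. The normoxic count was 1, *Col1a2*, without miR-125b replicate 1. The share of all genes called by DESeq2 or with 1 library left out was not compared here.

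Most fibrillar chains were lower with Trim AG. In hypoxia 22 of 33 tested chains were called lower against miR-125b and 0 higher, where 11.5% of all genes tested were lower and 7.85% higher. The share of lower chains was thus far above that of all genes. The median log2 fold change of the 33 chains was -1.01, that of all genes tested 0.00 and that of all tested genes of at least 4000 bases -0.08. By class, 10 of 11 fibrillar, 2 of 5 basement membrane, 4 of 6 FACIT and 3 of 3 short-chain genes were lower, with medians of -1.22, -0.47, -0.67 and -1.58. From replicate 1 of Trim AG alone 11 of 34 chains were lower and 0 higher, of which 5 were fibrillar, 2 FACIT, 3 short-chain and 0 basement membrane, and 8.61% of all genes were lower and 5.82% higher. The median of all chains was then -0.57, and those of the 4 classes in the order above were -0.75, -0.18, -0.58 and -1.26.

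*Col1a1*, the most abundant chain, had 12510, 5403 and 7981 CPM in Hypoxia Trim AG against 25741, 26177 and 26897 CPM in Hypoxia miR-125b. All Trim AG libraries lay below all of miR-125b and of MC. Over all genes tested 54.1% did not overlap in the former comparison and 66.8% in the latter. The log2 fold change of *Col1a1* against miR-125b was -1.59 (SE 0.24, adjusted p = 0.00143), and -1.07 from replicate 1 alone. *Col3a1*, which forms mixed fibrils with type I, had 4954, 2501 and 3583 CPM against 13284, 13614 and 14175 CPM, a log2 fold change of -1.88 (SE 0.20, adjusted p = 2.63e-04), and -1.46 from replicate 1. *Col1a2* had 772, 868 and 1427 CPM with Trim AG, with a log2 fold change of -1.53 (SE 0.24, adjusted p = 0.00152). For this chain replicate 1 was the lowest of the group, unlike *Col1a1* and *Col3a1*.

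The other fibrillar chains followed, apart from *Col5a2*. *Col5a1*, a type V chain that starts fibril assembly, had 1502, 697 and 1035 CPM with Trim AG and 2105, 2264 and 2326 CPM with miR-125b, with a log2 fold change of -1.04 (SE 0.22, adjusted p = 0.00686). From replicate 1 alone it was -0.57 and not called. *Col11a1* of type XI had 214, 130.4 and 171 against 391, 411 and 416 CPM, and its log2 fold change of -1.22 was -0.92 from replicate 1 and still called. *Col5a3* had 186, 90.9 and 121 against 254, 278 and 277 CPM, a log2 fold change of -1.01. *Col5a2*, the partner of *Col5a1*, had 2499, 1685 and 2182 against 3020, 3177 and 3108 CPM. Its log2 fold change of -0.53 (SE 0.12, adjusted p = 0.00914) was not called.

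The 3 short-chain genes were all called lower. *Col8a1*, a chain of the network under endothelial and smooth muscle cells, had 194, 139 and 177 CPM in Hypoxia Trim AG and 439, 466 and 488 CPM in Hypoxia miR-125b, a log2 fold change of -1.43 (SE 0.11, adjusted p = 6.28e-05). Its partner *Col8a2* had 38.0, 22.2 and 33.6 CPM with Trim AG and 94.3, 93.2 and 95.3 CPM with miR-125b, with a log2 fold change of -1.58 (SE 0.16, adjusted p = 2.15e-04). From replicate 1 alone the values were -1.26 and -1.31, both called. *Col10a1*, known from growth plate cartilage, had 3.15, 1.28 and 2.04 CPM with Trim AG and 6.53, 5.78 and 7.33 CPM with miR-125b and also fell.

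The main basement membrane chains did not pass. *Col4a1* had 1544, 795 and 1100 CPM with Trim AG and 1492, 1608 and 1610 CPM with miR-125b, so that Trim AG replicate 1 was inside the range of miR-125b. *Col4a2* had 902, 451 and 641 CPM with Trim AG against 878, 956 and 954 CPM. *Col4a5*, an X-linked type IV chain, had 323, 209 and 272 CPM against 359.8, 369.9 and 374 CPM without overlap. The log2 fold changes of these 3 genes were -0.44, -0.47 and -0.44. The minor chains *Col4a4* and *Col4a6* were called lower, with the call lost without Trim AG replicate 3 or miR-125b replicate 2 or 3 for both, and also without Trim AG replicate 2 or miR-125b replicate 1 for *Col4a6*.

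Among FACIT and other chains, *Col16a1* had 50.9, 27.8 and 37.1 CPM with Trim AG against 104, 117 and 115 CPM with miR-125b, with a log2 fold change of -1.53. *Col12a1* had a log2 fold change of -1.11 and *Col27a1*, at 39.7, 19.5 and 24.7 CPM with Trim AG, one of -1.20. *Col26a1* had 5.76, 3.76 and 3.87 CPM and fell by 1.78 on the log2 scale. *Col18a1*, *Col20a1* and *Col22a1* fell by 0.59, 0.62 and 0.72 on that scale, and those calls were lost without Trim AG replicate 3 in each case and from replicate 1 alone. *Col15a1*, a multiplexin of muscle basement membrane, had 31.0, 17.9 and 31.0 CPM with Trim AG and 26.7, 26.4 and 18.1 CPM with miR-125b and did not pass.

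In normoxia the libraries of Trim AG did not split in this way, and the direction for the fibrillar chains was again lower. Against miR-125b 9 of 33 tested chains were called lower and 0 higher, where 6.36% of all genes tested were lower and 7.58% higher, so that the share of lower chains was again above that of all genes. They were 5 of 11 fibrillar, 2 of 8 FACIT and 2 of 3 short-chain genes, and 0 of 5 basement membrane genes. Without Normoxia miR-125b replicate 1 the count was 10, with *Col2a1*, *Col7a1* and *Col10a1* gained and *Col1a2* and *Col11a2* lost. The basement membrane genes *Col4a1*, *Col4a2* and *Col4a5* had log2 fold changes of -0.13, -0.07 and -0.34, and the low *Col4a4* had -0.61 (SE 0.25, adjusted p = 0.084). *Col1a1* had 15821, 17468 and 16790 CPM in Normoxia Trim AG and 23470, 25401 and 27702 CPM in Normoxia miR-125b, a log2 fold change of -0.66 (SE 0.06, adjusted p = 4.73e-05). *Col3a1* had 5571, 6779 and 5911 CPM with Trim AG and 9262, 9174 and 10480 CPM with miR-125b, with a log2 fold change of -0.71 (SE 0.08, adjusted p = 1.34e-04). Neither chain overlapped between the groups, as held for 13 of 33 tested chains and 51.8% of all genes tested.

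*Col1a2* had 1561, 1713 and 1471 CPM in Normoxia Trim AG and 3816, 2079 and 2500 CPM in Normoxia miR-125b, and its log2 fold change of -0.87 lost its call without miR-125b replicate 1. *Col11a1* had 171, 223 and 198 CPM with Trim AG against 333, 294 and 366 CPM with miR-125b. *Col8a1* and *Col8a2* fell without overlap, by 0.69 and 0.93 on the log2 scale. *Col8a1* had 364, 438 and 393 CPM with Trim AG against 616, 583 and 670.0 CPM, and *Col8a2* had 59.7, 72.4 and 64.0 CPM against 144, 106 and 111 CPM. *Col20a1* showed the largest log2 fold change of the 9 called chains, -1.27 (SE 0.14, adjusted p = 1.52e-04), with 7.85, 7.18 and 8.61 CPM with Trim AG and 16.0, 16.8 and 22.4 CPM with miR-125b. *Col11a2* and *Col16a1* were also called, and both calls were lost without Trim AG replicate 1 or miR-125b replicate 3, and for *Col11a2* also without miR-125b replicate 1.

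Trim AGU also lay below miR-125b, but its hypoxic libraries spread more. In hypoxia 4 of 33 chains were called lower and 0 higher, where 1.93% of all genes tested were lower and 1.83% higher, a smaller share than that of the chains. The 4 chains were *Col11a2*, *Col16a1*, *Col20a1* and *Col22a1*. For the counts below with 1 library left out, the share of all genes was not compared. The count was 0 without any of the 3 Hypoxia miR-125b libraries, 1 without Trim AGU replicate 3, 13 without replicate 1 and 17 without replicate 2, while 9 of 34 were called from replicate 1 alone (4.53% of all genes lower). *Col1a1* had 18043, 9504 and 10908 CPM and *Col3a1* 8260, 3738 and 5618 CPM, both below all miR-125b libraries, with log2 fold changes of -0.96 and -1.15 that were not called. In this comparison 37.7% of all genes tested did not overlap. The median log2 fold change of the 33 chains was -0.96 and that of all tested genes of at least 4000 bases -0.21, and from replicate 1 alone that of the chains was -0.52.

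In normoxia 9 of 32 chains were called lower with Trim AGU against miR-125b and 0 higher, where 5.16% of all genes tested were lower and 6.22% higher. Without Normoxia miR-125b replicate 1 the count was again 9, with *Col22a1* gained and *Col6a1* lost. Minor chains led. *Col20a1* had 4.12, 3.31 and 5.02 CPM in Normoxia Trim AGU against 16.0, 16.8 and 22.4 CPM, a log2 fold change of -2.15 (SE 0.19, adjusted p = 1.77e-04). *Col11a2* had 3.95, 2.17 and 3.96 against 10.0, 7.59 and 10.8 CPM, a log2 fold change of -1.50, and *Col2a1* had 0.277, 0.276 and 0.165 against 0.822, 2.26 and 2.61 CPM. *Col15a1* had 26.0, 24.1 and 31.1 against 49.0, 69.8 and 58.8 CPM, a log2 fold change of -1.14. *Col4a4*, *Col6a1*, *Col7a1*, *Col8a2* and *Col11a1* were the other called chains, and the call of *Col6a1* was lost without any of 5 libraries. *Col1a1* had 17695, 19824 and 19399 CPM, below all libraries of Normoxia miR-125b, and its log2 fold change of -0.44 missed the fold threshold. Here 43.1% of all genes tested did not overlap. In Normoxia Trim AGU replicate 2 the length measure was 0.546, so long genes were high in that library.

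The balance of fibrillar and basement membrane transcripts varied less within Hypoxia Trim A and Trim AG than their levels did. In each library the FPKM of the 11 fibrillar genes were summed and divided by the sum over the 5 basement membrane genes. The ratio was 11.5, 11.5 and 10.9 in Hypoxia MC, 19.6, 18.2 and 19.1 in Hypoxia miR-125b and 17.9, 16.3 and 17.1 in Hypoxia Plus A. It was 14.9, 14.9 and 15.1 in Hypoxia Trim A and 9.01, 8.85 and 9.23 in Hypoxia Trim AG, the lowest group. Replicate 1 thus did not stand apart from replicates 2 and 3 by this ratio in Trim A or Trim AG, although the summed fibrillar FPKM of the 3 Trim AG libraries was 4091, 2164 and 3064. In Hypoxia Trim AGU it was 13.7, 17.2 and 13.9, with replicate 2 above the others.

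In normoxia the ratio was 19.4, 20.5 and 19.8 with miR-125b, 19.3, 18.7 and 19.5 with Plus A and 19.2, 19.0 and 17.9 with Trim A. With Trim AG it was 14.1, 14.0 and 14.1, below all other normoxic libraries, and with Trim AGU 17.0, 19.0 and 16.4. Trim AG was therefore the lowest of the 5 mimics in both oxygen conditions. The ratio is dominated by *Col1a1* and *Col3a1*, was examined after its values were seen and has no test. The FACIT chains took 0.722% to 1.88% of the summed collagen FPKM over all libraries, and *Col12a1* was the most abundant of them.

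**Figure D4:**
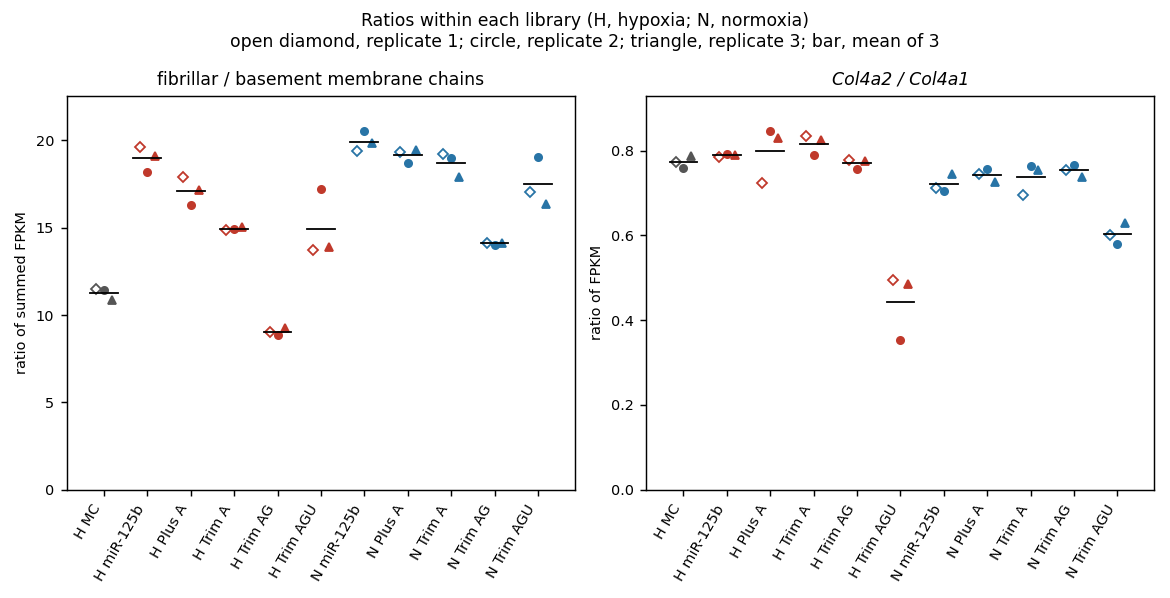
Ratio of the summed FPKM of 11 fibrillar to 5 basement membrane genes (left) and of *Col4a2* to *Col4a1* FPKM (right) in each of the 33 libraries, by group; symbols mark replicates and bars the mean of 3. Left, the Hypoxia Trim AG libraries lie lowest at 8.85 to 9.23; right, the Trim AGU libraries of either oxygen condition lie lowest, at 0.353 to 0.629.

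A chosen pair of basement membrane genes shared a start region. *Col4a1* and *Col4a2* encode the chains that combine into the main type IV collagen, and in RefSeq they are transcribed away from each other from starts 77 bases apart on chromosome 16 of GRCr8. The windows from 250 bases before to 50 bases after each start therefore overlap by 176 bases, and are shown with that of *Col1a2*, 1 chain of the type I pair that is set beside them. In the annotation of the files, on a build not given in the sources used here, the nearest ends of these genes are 83601 bases apart. Capitals mark CCAAT on either strand (ATTGG on the other), a motif found in 37.5% of all 33469 promoter windows and in 11 of the 33 chains that have a window. The windows are chr16:84885347-84885646 (plus) for *Col4a1*, chr16:84885471-84885770 (minus) for *Col4a2* and chr4:33518307-33518606 (plus) for *Col1a2*.
Col4a1: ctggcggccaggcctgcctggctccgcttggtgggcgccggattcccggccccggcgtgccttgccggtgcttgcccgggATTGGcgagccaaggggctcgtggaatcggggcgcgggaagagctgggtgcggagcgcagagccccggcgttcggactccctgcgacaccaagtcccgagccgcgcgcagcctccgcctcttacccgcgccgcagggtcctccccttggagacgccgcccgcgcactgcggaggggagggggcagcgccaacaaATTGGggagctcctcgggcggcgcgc
Col4a2: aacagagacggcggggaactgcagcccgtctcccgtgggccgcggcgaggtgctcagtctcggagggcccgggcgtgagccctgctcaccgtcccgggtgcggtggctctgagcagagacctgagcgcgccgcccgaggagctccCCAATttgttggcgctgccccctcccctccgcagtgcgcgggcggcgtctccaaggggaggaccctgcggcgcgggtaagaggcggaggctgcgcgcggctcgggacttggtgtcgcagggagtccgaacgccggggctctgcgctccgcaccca
Col1a2: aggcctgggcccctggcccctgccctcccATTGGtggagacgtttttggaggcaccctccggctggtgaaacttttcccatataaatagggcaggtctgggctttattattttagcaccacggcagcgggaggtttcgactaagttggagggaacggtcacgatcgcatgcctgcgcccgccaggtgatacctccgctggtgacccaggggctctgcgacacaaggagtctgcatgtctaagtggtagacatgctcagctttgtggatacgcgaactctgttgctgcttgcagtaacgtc
In the shared stretch, 1 match of the motif is the same bases read on either strand.

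*Col4a2* stood lowest relative to *Col4a1* in Trim AGU. The ratio of *Col4a2* to *Col4a1* FPKM was 0.772, 0.76 and 0.788 in Hypoxia MC, 0.784, 0.792 and 0.789 in Hypoxia miR-125b, 0.834, 0.789 and 0.824 in Hypoxia Trim A and 0.778, 0.755 and 0.776 in Hypoxia Trim AG. In Hypoxia Plus A it was 0.724, 0.845 and 0.829. In Hypoxia Trim AGU it was 0.494, 0.353 and 0.485, below every library of the other groups. In normoxia it was 0.711, 0.706 and 0.744 with miR-125b and 0.602, 0.579 and 0.629 with Trim AGU, again without overlap. An exact two-sided permutation test of Trim AGU against miR-125b gave p = 0.1 in hypoxia and in normoxia, the smallest p that 3 against 3 libraries allow. The same p came from Trim A and Trim AGU against MC and from Trim AG against miR-125b in hypoxia. It also came from hypoxia against normoxia with miR-125b, Trim A and Trim AGU, so this test does not set Trim AGU apart. Against MC the log2 fold change of *Col4a2* with Trim AGU was -1.25 (SE 0.34, adjusted p = 0.0325), lost without any of the 3 MC libraries or Trim AGU replicate 3, while *Col4a1* had -0.50 and was not called. This pair was singled out after its values were seen.

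The type I pair behaved otherwise. The ratio of *Col1a1* to *Col1a2* FPKM was 4.04, 7.83 and 6.94 in Hypoxia MC, 5.89, 8.70 and 6.26 in Hypoxia miR-125b and 12.5, 4.78 and 4.30 in Hypoxia Trim AG. In Normoxia miR-125b it was 4.73, 9.39 and 8.51. Libraries of a single group thus covered much of the range of 3.98 to 12.7 seen over all 33 libraries, and the cause was not tested. The ratio of the type V pair, *Col5a1* to *Col5a2*, was 0.48, 0.491 and 0.515 in Hypoxia miR-125b. It was 0.533, 0.367 and 0.4 in Hypoxia Trim A, 0.414, 0.285 and 0.327 in Hypoxia Trim AG and 0.422, 0.233 and 0.344 in Hypoxia Trim AGU, highest in replicate 1 of each.

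The last question was how hypoxia, with its change of medium, moved the chains under each mimic. With miR-125b 8 of 34 tested chains were called higher (9.34% of all genes) and 3 lower (11.5%). With Plus A 8 of 32 were higher (10.0%) and 5 lower (12.8%). With Trim A 4 of 31 were higher (12.0%) and 11 lower (14.5%), and with Trim AG 4 of 32 were higher (15.0%) and 13 lower (17.8%). With Trim AGU 2 of 30 were higher (13.6%) and 2 lower (13.4%). From replicate 1 of the hypoxic group alone 5 of 35 were higher (7.49%) and 5 lower (11.6%) with Trim A, 5 of 35 higher (11.8%) and 6 lower (14.8%) with Trim AG, and 6 of 33 higher (9.02%) and 2 lower (12.4%) with Trim AGU. Without replicate 1 of the normoxic group the miR-125b count was 7 higher and 4 lower and the Plus A count 5 and 4. Without Hypoxia Trim AGU replicate 1 or 2 the Trim AGU comparison had 10 or 7 calls in all, and without Hypoxia Plus A replicate 2 the Plus A comparison had 7.

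With miR-125b and Plus A the share of higher chains was above that of all genes, and with Trim A and Trim AG that of lower chains was above it from all libraries but close to it from replicate 1 alone. The same 4 chains were called under all 5 mimics. *Col20a1* rose in all 5 comparisons, from 16.0, 16.8 and 22.4 CPM in Normoxia miR-125b to 71.5, 68.4 and 69.7 CPM in Hypoxia miR-125b, with a log2 fold change of 1.84. In the order Plus A to Trim AGU the other 4 log2 fold changes were 1.95, 1.96, 2.52 and 2.70. *Col11a2* rose in all 5 as well, from 10.0, 7.59 and 10.8 to 35.9, 37.4 and 33.2 CPM with miR-125b, and by 1.46 to 1.96 on the log2 scale over the mimics. No libraries overlapped in these 10 comparisons. Such a lack of overlap held for 52.3% (Trim AGU) to 63.2% (Trim AG) of all genes tested, and for 7 of 30 and 18 of 32 tested chains. The change with hypoxia was measured only under miR-125b and its isomiRs, since Normoxia MC had no library values here.

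*Col12a1* and *Col15a1* fell under each mimic. *Col12a1* went from 870.2, 732 and 833 CPM in Normoxia miR-125b to 472, 502 and 514 CPM in Hypoxia miR-125b, a log2 fold change of -0.79 (SE 0.07, adjusted p = 1.32e-05). With Trim AGU its call was lost without Hypoxia Trim AGU replicate 3 or Normoxia Trim AGU replicate 2 or 3. *Col15a1* went from 49.0, 69.8 and 58.8 to 26.7, 26.4 and 18.1 CPM with miR-125b, with a log2 fold change of -1.40 (SE 0.16, adjusted p = 8.15e-05), and from 26.0, 24.1 and 31.1 to 7.66, 2.29 and 7.87 CPM with Trim AGU. With Trim AG its call was lost without Normoxia Trim AG replicate 2. *Col7a1*, the chain of anchoring fibrils under epithelia, went from 4.56, 5.36 and 5.91 to 2.27, 2.52 and 3.07 CPM and was called lower with each mimic but Trim AGU.

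The abundant fibrillar chains moved less with hypoxia under miR-125b. *Col1a1* had a log2 fold change of -0.04 (SE 0.05, adjusted p = 0.552) and *Col3a1* of 0.42 (SE 0.05, adjusted p = 1.48e-04), neither called. *Col5a3* went from 141, 151 and 176 to 254, 278 and 277 CPM, a log2 fold change of 0.70 (SE 0.08, adjusted p = 5.67e-05), and *Col18a1* rose by 0.77 on the log2 scale, from 11.9, 13.7 and 15.7 to 23.0, 26.1 and 25.3 CPM. *Col4a6* rose with miR-125b and Plus A, by 1.00 and 0.86 on that scale. *Col6a5* was called higher with miR-125b on a mean of 0.642 CPM, too few counts to give a fold.

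Under Trim AG several fibrillar and short-chain genes were called lower with hypoxia from all libraries. From replicate 1 of Hypoxia Trim AG alone the median log2 fold change was -0.18 over 11 fibrillar and -0.79 over 3 short-chain genes. *Col1a1* went from 15821, 17468 and 16790 to 12510, 5403 and 7981 CPM, a log2 fold change of -0.95 (SE 0.24, adjusted p = 0.00765), or -0.42 and not called from replicate 1. *Col8a1* went from 364, 438 and 393 to 194, 139 and 177 CPM, a log2 fold change of -1.22 (SE 0.12, adjusted p = 5.51e-05), or -1.04 and still called from replicate 1. *Col3a1*, *Col1a2* and *Col5a1* were called lower too, but *Col3a1* not without Hypoxia or Normoxia Trim AG replicate 2, *Col1a2* not without replicate 1 or 2 of either group, and *Col5a1* without the call in 5 of 6 fits that left out a library.

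Whether the difference between Trim AG and miR-125b itself changed between normoxia and hypoxia, with its change of medium, was tested as an interaction. Of 35 tested chains 10 were called, where 11.3% of all genes tested were called in either direction, a smaller share. For 9 of them the difference was more negative in hypoxia, among them *Col1a1*, *Col3a1*, *Col8a1* and *Col16a1*, and *Col20a1* went the other way. From replicate 1 alone 3 of 35 were called (5.52% of all genes), which are *Col3a1*, *Col20a1* and *Col26a1*, with 1 higher and 2 lower. Without Normoxia miR-125b replicate 1 the count was again 10, with *Col1a2* in place of *Col1a1*. For Plus A 0 of 35 were called (0.0193% of all genes), for Trim A 0 of 35 (0.605%) and for Trim AGU 0 of 35 (0.966%) by edgeR. Unadjusted p-values below 0.05 were had by 7, 13 and 8 chains, and DESeq2 called 0, 7 and 1. Without replicate 1 of the hypoxic Trim group Trim A had 17 calls, Trim AG 18 and Trim AGU 10. The share of all genes called by DESeq2 or in these fits was not compared here. A rise in calls therefore cannot be called particular to collagen.

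Normoxia MC can be read only from the authors' means, which have no spread and no test. The authors' mean signal of *Col1a1* was 397385 in Normoxia MC and 771443 in Normoxia Plus A. That of *Col3a1* was 198168 and 279801, that of *Col20a1* 106 and 611, and that of *Col11a2* 85.7 and 283. *Col12a1* had 29644 and 24586 and *Col27a1* 2976 and 1836. Of the 7 chains called higher with Plus A against MC in hypoxia, 7 had a higher mean in Normoxia Plus A than in Normoxia MC. Of the 9 called lower, 8 had a lower mean and *Col7a1* a higher one. Such agreement was not counted over all genes, so it cannot be called particular to collagen. Over the 41 chains listed with such means, 28 were higher and 13 lower. The Plus A mean includes the library labelled replicate 1.

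Genes that make, bind or cut collagen were counted from lists. The synthesis and cross-linking list holds the enzymes and chaperones that fold, cut and link the chains. For Trim AG against miR-125b in hypoxia 28 of its genes were tested, with 0 called higher and 12 lower. Of all genes tested 7.85% were higher and 11.5% lower in that comparison. The median log2 fold change of the list was -0.44. From replicate 1 alone 1 of 28 was higher and 6 lower, with a median of -0.29. In normoxia 4 of 27 were higher and 3 lower, with a median of -0.11, where 7.58% of all genes were higher and 6.36% lower. Of the fibrillar collagen partners, matrix proteins that bind fibrils, 1 of 17 was higher and 10 lower in hypoxia and 2 of 17 were higher and 2 lower in normoxia, with medians of -1.02 and -0.19. From replicate 1 of the hypoxic group 2 of 18 partners were higher and 9 lower, with a median of -0.80. Of the receptors and collagen-cleaving proteases 1 of 13 was higher and 6 lower in hypoxia and 1 was higher and 1 lower in normoxia. From replicate 1 alone 1 of 14 was higher and 5 lower in hypoxia. In normoxia 9 chains were lower and 0 higher with Trim AG, while these lists went both ways.

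For miR-125b against MC in hypoxia the synthesis list had 3 of 28 higher and 7 lower, the partners 2 of 18 higher and 6 lower, and the receptors and proteases 1 of 13 higher and 2 lower. For hypoxia against normoxia with miR-125b the numbers were 2 and 4 of 28, 6 and 6 of 17, and 2 and 1 of 13. Of all genes tested 9.43% were higher and 12.5% lower in the former comparison, and 9.34% and 11.5% in the latter. The lists were not tested against these shares.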

How the data were processed

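RNA-seq libraries of poly-A RNA, made without strand information, covered 3 samples per group of H9C2 cells. HISAT2 and StringTie are named in the submitters' processing notes, and the version and genome build are not given in the sources used here. The authors deposited raw counts per gene, FPKM values (scaled for library and transcript length) and, for each comparison, normalized group means. The deposited authors' means are a signal without replicate values and were used for Normoxia MC only, and the authors' own fold changes and p-values were not used. FPKM served to compare levels between genes.

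Counts of 11 tables were joined by gene identifier, with an absent gene set to 0. Depth per library was 28361216 to 42672584 counts. CPM are counts scaled to the same library total. Each pair of groups was fitted on its own libraries with the quasi-likelihood test of edgeR 4.0.16 (filterByExpr with a minimum count of 10, TMM scaling), and p-values were adjusted by Benjamini-Hochberg over all genes tested. A call needed an adjusted p below 0.05 and a fold of at least 1.5. In all, 18 comparisons and 4 interactions were made, and the method was tested on simulated data. Alternatives were DESeq2 1.42.0 and its size factors, no filter, 1 fit of all libraries, a replicate block, removal of a gene length trend and leaving out each library. The use of replicate 1 of the hypoxic Trim groups alone was added after the values were seen.

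Chains were named by level or call: those of at least 10 CPM in a group, and those of at least 1 CPM that were called. The chains, classes and lists were chosen with earlier results of these data known. Nothing says that the 3 samples of a group were separate cultures, so p-values measure only the spread between these samples, which may be technical. Because reads carry no strand, reads of overlapping antisense genes cannot be told apart.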

Additional observations from a re-analysis of the deposited data

Results flagged for a closer look

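The difference between Trim AG and miR-125b changed between normoxia and hypoxia, with its other medium, for 10 of 35 tested chains. The interaction term of edgeR was used with adjustment over all genes, and 11.3% of all genes tested were called. Oxygen, serum and glucose cannot be told apart here. The interaction is the log2 fold change of Trim AG against miR-125b in hypoxia minus that in normoxia. It was -0.95 for *Col1a1*, -1.19 for *Col3a1*, -2.79 for *Col24a1* and -1.25 for *Col27a1* among fibrillar chains. The highest group mean of *Col24a1* was 1.09 CPM, with 402 counts over all 33 libraries, so its value rests on few reads. It was -0.75 for *Col8a1* and -0.66 for *Col8a2*, the short-chain partners, and -0.92 for the FACIT chain *Col16a1*. The multiplexin *Col18a1* had -0.90 and *Col26a1* had -1.27. *Col20a1* went the other way with 0.64, since it was farther below miR-125b in normoxia than in hypoxia. From replicate 1 of Hypoxia Trim AG alone the term was called for *Col3a1* (-0.77), *Col20a1* (0.90) and *Col26a1* (-0.92), and for *Col1a1* it was -0.42 and not called. In replicates 2 and 3 of that group long genes were low, and the part of gene length in these 10 values was tested only by removing a length trend. With that trend removed 13 of 35 chains were called, 1 higher and 12 lower, and the share of all genes in that fit is not given. When each of the 12 libraries was left out in turn, the call of *Col1a1* was kept in 7 fits, that of *Col20a1* in 6 and that of *Col8a2* in 2, and the other 7 chains were called in all 12.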

How the results depend on the processing

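No chain that was called changed direction under any alternative run. For DESeq2, other alternative fits and single libraries left out, the share of all genes called is not given. Whether calls moved alike over all genes was therefore not compared here. Counts of called chains moved by over 1.5 times as follows. With DESeq2, Plus A against miR-125b in hypoxia went from 1 to 0, Trim A against miR-125b from 0 to 5 in hypoxia and from 0 to 1 in normoxia, Trim AGU against miR-125b in hypoxia from 4 to 13, hypoxia against normoxia with Trim AGU from 4 to 8, and the interactions of Trim A and Trim AGU from 0 to 7 and from 0 to 1. With all libraries in 1 fit, Trim AGU against MC went from 10 to 20, and against miR-125b in hypoxia Plus A went from 1 to 0, Trim A from 0 to 2 and Trim AGU from 4 to 21, while hypoxia against normoxia with Trim AGU went from 4 to 12. With the gene length trend removed, the hypoxic Trim A and Trim AGU libraries had 2 and 8 calls against miR-125b and their interactions 4 and 1. Trim AG stayed within 1.5 times in that run. In hypoxia it had 19 calls against miR-125b in place of 22 and 20 against MC in place of 24. Hypoxia against normoxia with Trim AG had 15 in place of 17, and the Trim AG interaction 13 in place of 10. With no filter on low counts, Trim A had 1 call in normoxia and 4 in the interaction. From replicate 1 of the hypoxic Trim group alone, Trim A had 1, Trim AG 11 and Trim AGU 9 calls against hypoxic miR-125b, those of hypoxia against normoxia 11 for Trim AG and 8 for Trim AGU, and the Trim AG interaction had 3. Without replicate 1 of both Normoxia Plus A and Normoxia miR-125b, Plus A had 1 call in normoxia. The size factors of DESeq2 moved 0 of 22 counts.

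When each library was left out in turn, calls ranged from 5 to 16 for Trim AGU against MC. Against miR-125b in hypoxia Plus A ranged from 0 to 3, Trim A from 0 to 18 and Trim AGU from 0 to 17, and in normoxia Trim A ranged from 0 to 1. Hypoxia against normoxia gave 7 to 9 in place of 13 with Plus A and 3 to 10 with Trim AGU. In the interactions Trim A ranged from 0 to 17, Trim AG from 7 to 18 and Trim AGU from 0 to 10.

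Same-numbered replicates did not deviate together in all 3 pairs of any comparison, so the numbers were not taken as a pairing. With the replicate block the count of Trim AGU against miR-125b in hypoxia was 1 in place of 4, and with the block and the length trend removed it was 2, while Trim A in hypoxia had 3. The other counts stayed within 1.5 times under the block.

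With 3 libraries a group and chains below about 1 CPM, single counts decide a fold. Minor chains such as *Col2a1*, *Col4a4*, *Col6a2* and *Col24a1* rest on few reads.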
